A study of Mus musculus with 7 samples.

Results

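The T-cell receptor alpha and delta genes (Tcra and Tcrd) lie nested in a single locus on mouse chromosome 14, and the regions described here are all called ATAC-seq peaks that overlap chr14:52427928-54224206 (GRCm38, the mm10 assembly), from the first V segment, Trav1, to the end of the alpha constant gene, Trac. The 7 peak lists of the series held 412 such peaks among 647973. Peaks of different libraries that overlapped by at least 1 bp were merged into 114 regions. The rule took every called peak by its position, so beyond the peak calling itself no accessibility value chose a member.

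In ATAC-seq a transposase cuts accessible DNA and the resulting fragments are sequenced. Peaks are places where fragments stack higher than the library's background. Progenitors of B cells were sorted from mice at 3 stages, which run from pre-proB through proB to preB. WT cells were Ergfl/fl without Cre, Erg KO cells were Rag1CreT/+;Ergdelta/delta, and Erg Rescue cells (here Rescue) were Rag1CreT/+;Ergdelta/delta;IgHVH10tar, with a heavy chain gene that was already rearranged. With 1 library in a group there is no replicate error and no test was run, and any difference below is one between libraries.

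Erg is an ETS family transcription factor, and Rag1Cre removes it in cells that have turned on Rag1, from early lymphoid progenitors on. The 4 libraries without functional Erg (Erg KO pre-proB and the 3 Rescue libraries) are called Erg-deficient. WT, by the labels, was sampled at all 3 stages and Erg KO at pre-proB only. The stage of a Rescue library is that of its title, and in all 3 the source name gives another stage: the library titled pre-proB has the source proB, that titled proB has preB, and that titled preB has pre-proB. Results for Rescue by stage rest on the titles.

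A T-cell receptor gene is assembled by V(D)J recombination, in which the RAG enzymes cut at recombination signals beside the segments. A recombination signal consists of a heptamer that touches the segment, a spacer and a nonamer. In the alpha and delta locus a long array of V segments is followed by the delta D, J and C segments, then by the alpha J segments and the alpha constant gene, so that joining a V to a J of alpha deletes the delta genes between them. An enhancer in the delta part and another past Trac (the alpha enhancer) drive the locus in developing T cells. In the mouse the middle of the V array was copied, and the names of the copies carry a d or an n after the family number. B cells do not assemble this receptor.

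The sequences below belong to the regions on which the results turn, all on the plus strand of GRCm38. The first set is the 3′ end of the copies of Trav13-4, shown because peaks were centred there, and capitals mark the heptamer CACAGTG. The windows are chr14:53757902-53758021, chr14:53364087-53364206 and chr14:53073255-53073374.
Trav13-4-dv7 3′ end: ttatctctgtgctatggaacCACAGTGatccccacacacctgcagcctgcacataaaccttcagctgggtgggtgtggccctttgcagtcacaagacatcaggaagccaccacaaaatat
Trav13n-4 3′ end: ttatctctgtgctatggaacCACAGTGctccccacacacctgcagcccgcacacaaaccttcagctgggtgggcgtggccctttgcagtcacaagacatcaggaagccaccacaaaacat
Trav13d-4 3′ end: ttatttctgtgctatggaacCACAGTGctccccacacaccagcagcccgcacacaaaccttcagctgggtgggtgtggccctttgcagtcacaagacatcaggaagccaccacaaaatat
Over these 120 bases the unlettered copy differed from the d copy at 5 positions and from the n copy at 5, and the d and n copies differed at 4.

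The second set lies 5′ of the copies of Trav8-2 and in the region nearest Trdv4, shown because regions there had a peak in every library, or, for the d copy, in every Erg-deficient library. Capitals mark CNAGNNGGC, a core of the site of CTCF, the factor that anchors chromatin loops. The windows are chr14:53738106-53738196, chr14:53345693-53345783, chr14:53042159-53042249 and chr14:54059917-54060025.
Trav8-2 5′ flank: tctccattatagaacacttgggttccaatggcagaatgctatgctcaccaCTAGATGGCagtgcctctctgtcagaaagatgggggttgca
Trav8n-2 5′ flank: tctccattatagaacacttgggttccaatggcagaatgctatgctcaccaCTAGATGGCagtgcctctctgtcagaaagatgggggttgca
Trav8d-2 5′ flank: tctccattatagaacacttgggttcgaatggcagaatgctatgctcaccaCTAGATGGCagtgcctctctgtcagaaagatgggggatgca
Region nearest Trdv4: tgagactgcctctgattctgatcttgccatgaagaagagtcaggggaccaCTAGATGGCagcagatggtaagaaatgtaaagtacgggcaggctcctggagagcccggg
Over the 91 bases shown the n copy was identical to the unlettered copy and the d copy differed from each at 2 positions.

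The last set holds the region with the highest peak of the Erg-deficient libraries that no WT library shared (chr14:53080625-53080874), a joining region open at pre-proB alone (chr14:54168628-54168767) and the highest peak past Trac (chr14:54227470-54227660). In the first, capitals mark the RUNX core TGTGGT and the E-box CAGNTG on either strand. In the joining region they mark the nonamer ACAAAAACC, read on the minus strand, and the heptamer CACAGTG, which lay 12 bases apart and directly before Traj49. In the last they mark the CRE TGACGTCA, the TCF/LEF core CTTTGAA, the GATA core AGATAA and, running into each other, the RUNX core and an E-box.
Highest peak without a WT peak: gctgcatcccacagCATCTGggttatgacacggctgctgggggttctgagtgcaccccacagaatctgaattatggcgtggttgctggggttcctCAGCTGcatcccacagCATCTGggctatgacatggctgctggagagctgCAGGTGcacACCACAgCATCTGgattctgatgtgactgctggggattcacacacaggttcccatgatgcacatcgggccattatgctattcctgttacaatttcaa
Traj50 to Traj48 region: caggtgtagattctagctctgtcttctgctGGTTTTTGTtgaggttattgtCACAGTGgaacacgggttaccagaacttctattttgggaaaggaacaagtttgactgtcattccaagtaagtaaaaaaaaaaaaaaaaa
Highest peak past Trac: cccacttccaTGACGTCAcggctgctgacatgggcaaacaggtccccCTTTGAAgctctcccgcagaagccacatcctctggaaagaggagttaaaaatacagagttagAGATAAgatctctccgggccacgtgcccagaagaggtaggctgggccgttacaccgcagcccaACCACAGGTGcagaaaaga

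Of the whole series, the lists held between 76465 peaks (WT preB) and 105649 (Rescue pre-proB), and the background pileup, which stands for relative depth, ran from 3.49 to 4.60 fragments. The lowest pileup of a called peak was between 10 and 12 fragments, which is the number that an unlisted place may reach. The Erg gene body held between 30 and 40 peaks in each library, and since peaks do not show the deleted exons this checks no genotype. Of the promoters of 10 B-lineage markers, 9 had a peak in WT at the pre-proB stage, against 5 in Erg KO and 6 in Rescue, and all 10 had one in each proB and preB library. Markers of T cells had one at 5, 3 and 2 of 10 promoters from WT pre-proB to WT preB, at 6 in Erg KO, and at 6, 3 and 2 over the Rescue stages. Cd3e, Cd3d, Zap70 and Themis had no peak in any of the 7 libraries. The NK and innate lymphoid list had 8, 6 and 5 of 10 in WT, 8 in Erg KO, and 8, 8 and 4 over the Rescue stages. For plasmacytoid dendritic markers every library had 9 or 10 of 10, a count that does not show differences in height. Siglech had promoter folds of 101, 18.6 and 37.3 over the WT stages, 103 in Erg KO and 113 in Rescue pre-proB. Bst2 had 49.6 in WT pre-proB, 82.8 in Erg KO and 92.4 in Rescue pre-proB. Spib and Tcf4 were higher at later WT stages, with 48.1, 83.3 and 174, and with 60.1, 79.9 and 130. The part of other cell types in the values below was not tested.

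The locus carried 61, 39 and 14 peaks in WT from pre-proB to preB. Erg KO had 92, and Rescue had 90, 57 and 59 over its stages. The WT counts were thus lower at each later stage, the Erg-deficient pre-proB libraries held the most, and Rescue preB held 59 where WT preB held 14. With every list shortened to the length of the shortest, by q, the pre-proB counts were 51 in WT, 60 in Erg KO and 55 in Rescue, and the preB counts 14 and 50. Per Mb, WT went from 34.0 peaks at pre-proB to 21.7 at proB and 7.79 at preB, while its autosomes went from 37.9 to 36.4 and 30.4. The Rescue values were 50.1, 31.7 and 32.8, beside 41.8, 36.3 and 33.5 on the autosomes. In these pooled cells, fewer cells with an open site and a site less open in each cell cannot be told apart.

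**Figure D1:**
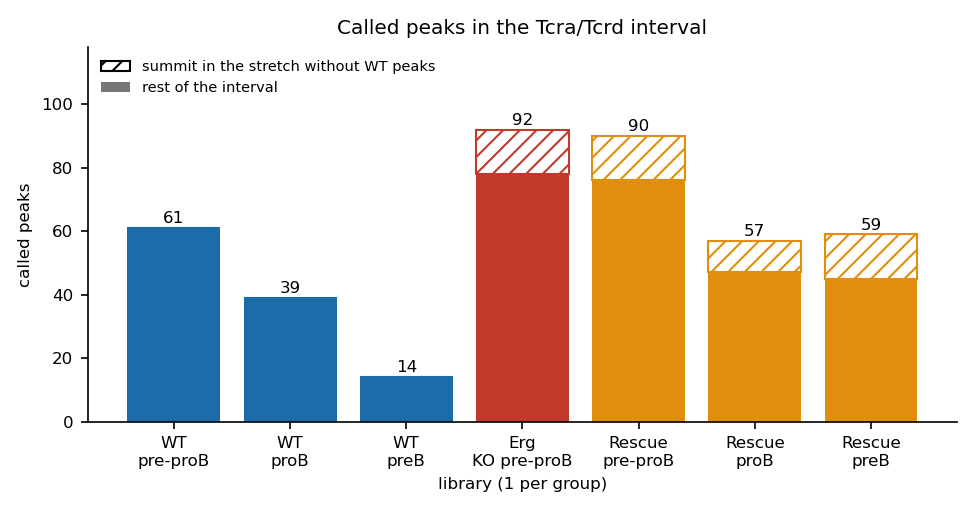
Called peaks in the Tcra/Tcrd interval (y axis, count) in each of the 7 libraries (x axis, 1 library per group). Hatched parts are peaks with their summit in the stretch that holds no WT peak, 14, 14, 10 and 14 in the Erg-deficient libraries, and solid parts are the rest of the interval.

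The other T-cell receptor loci also held fewer peaks at each later WT stage, and the immunoglobulin loci did not. The Tcrb locus held 50, 40 and 17 peaks over the WT stages, 52 in Erg KO, and 55, 36 and 21 over the Rescue stages, so its count in preB was 17 in WT and 21 in Rescue. Tcrg held 20, 13 and 10 in WT, 20 in Erg KO and 19, 18 and 14 in Rescue. Igk, the kappa light chain locus that preB cells recombine, went the other way, with 67, 213 and 228 peaks over the WT stages, 74 in Erg KO and 80, 224 and 255 in Rescue. Igh, the heavy chain locus, held 160, 208 and 147 in WT, 170 in Erg KO and 169, 220 and 243 in Rescue, so that at preB it too held more peaks in Rescue than in WT.

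Peaks of the Tcra/Tcrd interval were for the most part lower than the typical peak of their list. Their median fold over background was 7.17, 5.54 and 8.22 over the WT stages, 6.41 in Erg KO, and 6.61, 5.57 and 6.60 in Rescue. The share that lay above the median −log10 q of the list was between 27.1% (Rescue preB) and 42.9% (WT preB, 6 of 14). The highest fold was 40.9, 45.2 and 43.6 in WT, against 76.8 in Erg KO and 82.2, 51.2 and 62.5 in Rescue.

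**Figure D2:**
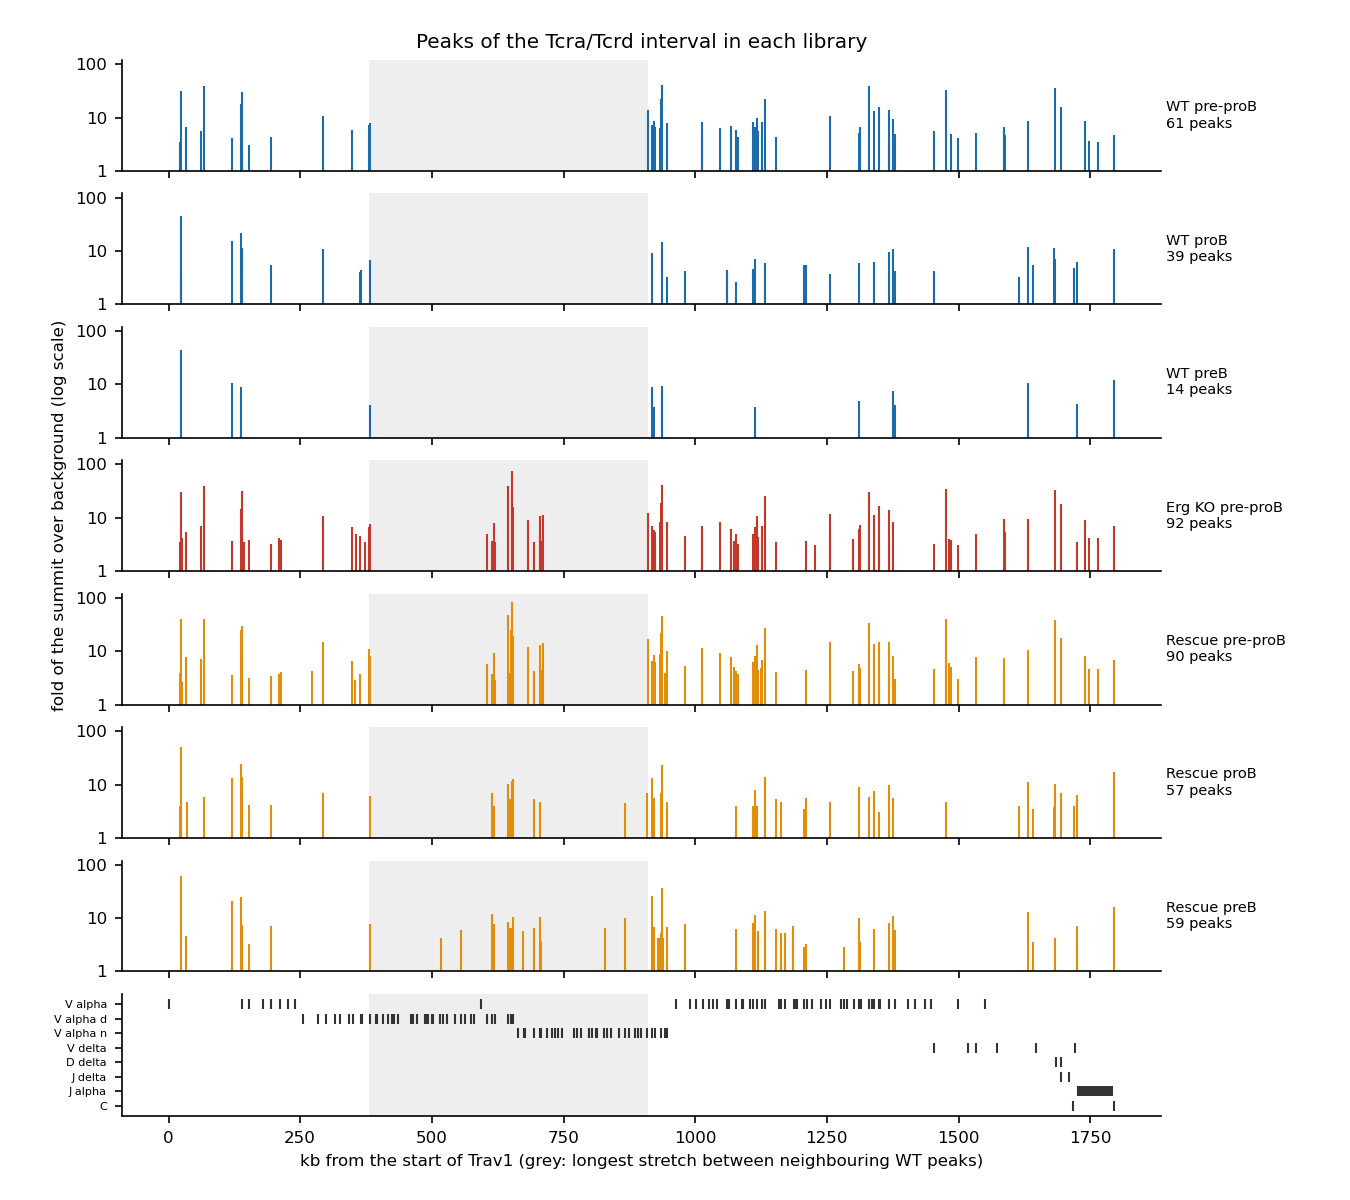
Each vertical line is a called peak at its summit, with its fold over background on a log axis, against the distance from the start of Trav1 in kb, with 1 panel per library and the segment classes below. No WT panel has a line in the grey stretch, while the Erg KO and Rescue panels hold 14, 14, 10 and 14 summits there.

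The first question of the study addressed here is what differs in pre-proB cells when Erg is missing. Of the 61 WT pre-proB peaks at the locus, 1 (1.64%, 95% Wilson interval 0.290% to 8.72%) had no overlapping Erg KO pre-proB peak, where 6.88% of the whole WT list had none. In the other direction, 30 of 92 Erg KO peaks (32.6%, interval 23.9% to 42.7%) had no WT partner, where 13.6% of the whole Erg KO list had none. Wilson intervals cover counting error only. Hence the peaks of WT pre-proB were nearly all present in Erg KO, which is not particular to the locus, since the interval includes the whole-list share. With lists of the shortest length, 7.84% of the WT pre-proB peaks at the locus had no Erg KO partner. The difference between these libraries at the locus lay mostly in peaks that only the Erg KO library had. The Erg-deficient libraries come from mice with Rag1Cre and the WT libraries from mice without it. Loss of Erg, Cre and mouse line thus cannot be told apart, here or in the comparisons and the stretch described below. The single exception, at chr14:53806242-53806634 and 5 bp from Trav17, was called in WT pre-proB with 24 fragments and in Rescue pre-proB with 16.

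Rescue pre-proB gave nearly the same picture as Erg KO pre-proB, at the locus as over the whole lists. None of the 61 WT peaks lacked a Rescue partner (0%, interval up to 5.92%, whole list 5.88%), and 30 of 90 Rescue peaks (33.3%, interval 24.5% to 43.6%, whole list 15.6%) lacked a WT partner. Between Erg KO and Rescue pre-proB, 5 of 92 Erg KO peaks (5.43%, interval 2.34% to 12.1%) and 7 of 90 Rescue peaks (7.78%, interval 3.82% to 15.2%) were not shared, beside 6.57% and 9.81% of the lists. These unshared peaks were low, with 16 to 18 fragments in Erg KO and 15 to 26 in Rescue.

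Where a pre-proB region had a peak in both genotypes, its height was close. At the 57 regions shared by WT and Erg KO pre-proB, the fold in Erg KO over that in WT had a median of −0.03 on the log2 scale, from −0.77 to 0.62, and was above 0 at 25 of the 57. At the 58 regions shared with Rescue pre-proB the median was 0.08, from −0.67 to 0.64. These ratios were taken at the locus only, with no value over the whole lists beside them. As an example, the region at the 3′ end of Trav13n-4 (chr14:53363697-53364585) had a fold of 40.9 in WT, 40.9 in Erg KO and 45.2 in Rescue pre-proB.

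A single part of the V array held 14 of the 30 peaks that Erg KO had and WT lacked at pre-proB, and the other 16 lay elsewhere. The longest stretch of the locus between neighbouring WT peaks ran over 526 kb, chr14:52811019-53336908, and was drawn after the data were seen, so that the absence of WT peaks in it is no result. It holds 58 V segments from Trav6d-6 to Trav7n-6, of which 29 are d copies and 28 are n copies. In it lay 14 Erg KO summits and 14, 10 and 14 Rescue summits by stage, in 20 regions. The highest peaks of the locus in Erg KO and Rescue pre-proB were among them. The first 134 kb of the stretch, with 16 d copies from Trav6d-6 to Trav13d-2, held no peak of any library.

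Outside the stretch, which was drawn so that no peak in it has a WT partner, shared peaks were more frequent. There, 16 of 78 Erg KO pre-proB peaks (20.5%) and 16 of 76 Rescue pre-proB peaks (21.1%) had no WT pre-proB partner. In all, 43 of the 114 regions (37.7%, interval 29.4% to 46.9%) had a peak in at least 1 Erg-deficient library and in no WT library, where 14.8% of all union regions of the genome did. Of these, 20 lay in the stretch and 23 outside. The 23 outside were low, with at most 33 fragments and a fold of at most 7.01 in any library, while 8 of the 20 inside exceeded 50 fragments and the highest reached 459. Only 3 regions (2.63%, interval 0.899% to 7.45%) had a peak in WT and in no Erg-deficient library, where 9.44% of all union regions did. They were the ones at Trav9d-1 (chr14:52792591-52792790) and at Trav9-1 (chr14:53488375-53488661 and chr14:53488821-53489073), each from WT proB with 22 or 23 fragments. With lists of the shortest length, 12 of 60 Erg KO peaks (20%) had no WT pre-proB partner, where 8.34% of the shortened list had none. Without the 3 Rescue libraries, 25 of 96 regions had a peak in Erg KO and in no WT library (26%), where 6.97% of all such regions of the genome did.

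A peak in all 4 Erg-deficient libraries and in no WT library was found at 7 regions (6.14%, interval 3.01% to 12.1%), and all 7 lay in the stretch. Over the genome 174 union regions, or 0.120%, had that pattern. Among peaks with a −log10 q of at least 10, 3 regions of the locus had it. The strongest was the region 1179 bp from Trav15d-3, chr14:53080312-53081175, with a pileup of 418 fragments in Erg KO and of 459, 52 and 30 over the Rescue stages. Its −log10 q in the same order was 645, 721, 40.1 and 15.4, so it was high at pre-proB and much lower later. This is the region whose sequence is given above, and every 75-base word of its 300-base summit window occurs once in the locus.

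Next came the region over Trav13d-4, chr14:53072481-53073734, with 219, 268 and 46 fragments in the first 3 of these libraries, at summits 17 to 28 bp past the 3′ end, and with 40 in Rescue preB at a summit position of −73 bp from the start. The region over Trav15d-3 itself (chr14:53081469-53082418) had 86, 109, 57 and 49 fragments, and so differed less between stages. The region at Trav6n-6 (chr14:53132365-53133411) held separate sites. Erg KO had 57 and Rescue pre-proB 72 fragments past the 3′ end, while near the start Erg KO had 26, Rescue proB 20 and Rescue preB 50. The 5′ flank of Trav8d-2 (chr14:53041973-53042472) went the other way, with 19 and 20 fragments at pre-proB, then 30 in Rescue proB and 58 in Rescue preB. Of the remaining pair, the region 1595 bp from Trav16d-dv11 (chr14:53045279-53045692) had 42, 50, 17 and 36, and that at Trav10n (chr14:53121668-53122063) had 18, 23, 23 and 31. The stretch thus held regions high at pre-proB and others high at preB.

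Among the other regions of the stretch, that at Trav14d-3-dv8 (chr14:53078736-53079613) had 142 fragments in Erg KO, 138 in Rescue pre-proB and 18 in Rescue proB, with no peak in Rescue preB. The region 3885 bp from Trav11n (chr14:53139563-53140029) had 61 and 80 fragments and was called in the Erg KO and Rescue pre-proB libraries alone. At Trav9n-4 (chr14:53294764-53295114) a peak stood in Rescue proB with 19 fragments and Rescue preB with 47, and 4 regions of the stretch were called in Rescue preB only.

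The stretch is the part of the locus where segments have the closest relatives. Each of its 20 regions had a copy outside the stretch, aligned over at least 200 bases of the 300-base summit window, with a best identity between 88.5% and 99.7% and a median of 96.7%. Of all 75-base words in the stretch, 20.2% occurred once in the locus, against 84.7% before it and 84.4% after it. Such a word has the read length of the libraries. Per the methods the reads were paired, so a read pair covers more sequence than a word. At the regions with peaks the words were less repetitive: a median of 65.7% occurred once in the 20 regions, from 32.3% to 100%, against a median of 100% in the other 94. How reads with several matches were placed is not given in the sources used here, and its part in the result was not tested.

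For a part of the 20 regions, copies outside the stretch carried WT peaks. A peak at some copy outside was found in WT pre-proB for 11 of the 20 regions, in WT proB for 10 and in WT preB for 5. The same counts were 12 in Erg KO and 12, 8 and 11 in Rescue pre-proB, proB and preB. At the copy of highest identity alone they were lower, with 7, 5 and 1 over the WT stages. There, Erg KO had 10 and Rescue had 9, 6 and 6 over its stages.

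Copy by copy, 40 V families (segments with the same family and member number) had a d or n copy, and 20 of them had a peak at some copy. Of the 28 copies of those 20 families that lie outside the stretch, 15, 13 and 4 had a peak over the WT stages, 16 in Erg KO, and 17, 15 and 13 over the Rescue stages. Of the 32 copies inside, where the choice of the stretch leaves none for WT, 9 had one in Erg KO and 9, 7 and 9 had one over the Rescue stages.

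**Figure D3:**
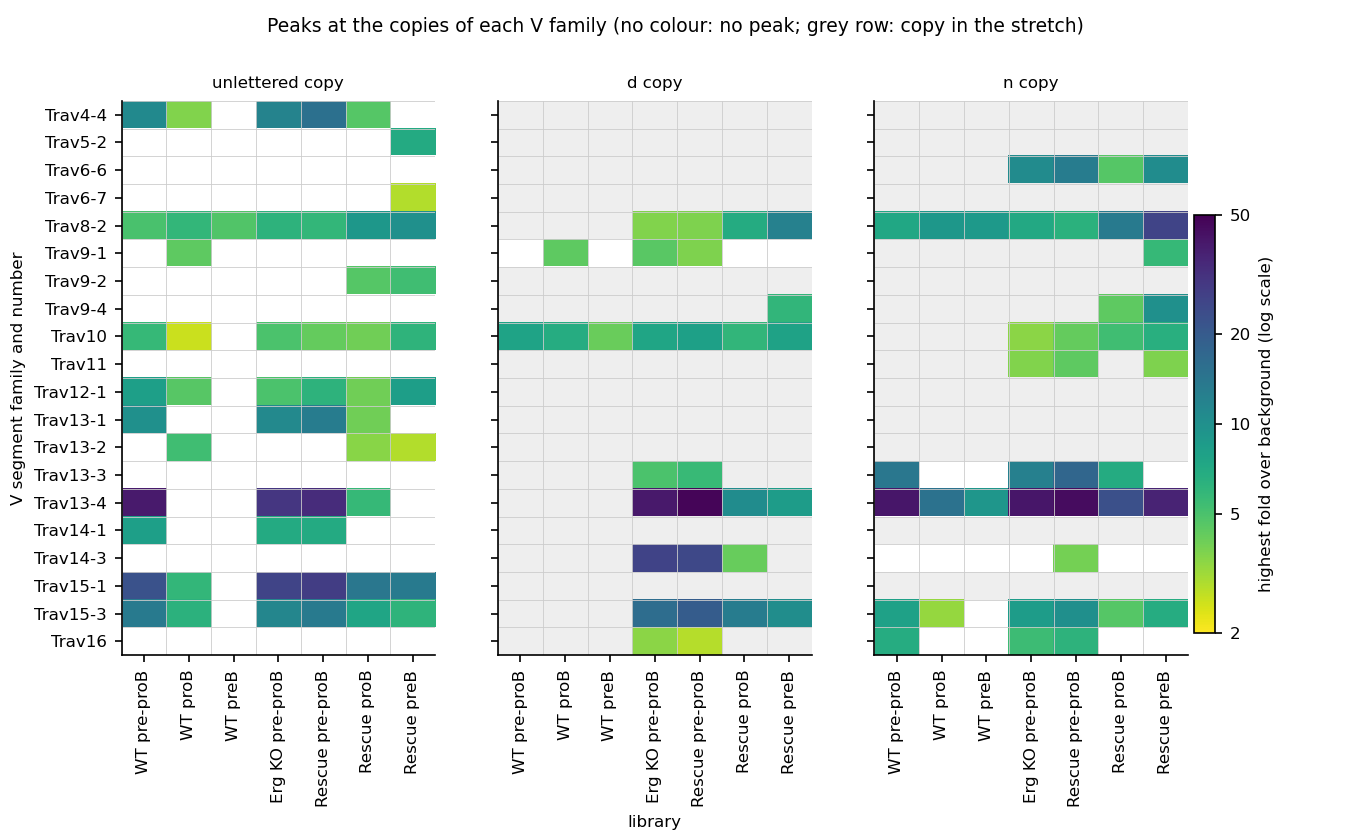
Highest fold over background (colour, log scale) within 1000 bp of each copy of the 20 V families with a peak, for the unlettered, d and n copy (panels) in the 7 libraries (columns). Grey rows are copies inside the stretch and have no colour in the 3 WT columns, while the Trav13-4 row is coloured in WT for its unlettered and n copies.

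Trav13-4 was the family with the highest folds. Its unlettered copy, Trav13-4-dv7, which can serve alpha or delta chains, had folds of 39.4 in WT pre-proB, 30.1 in Erg KO, 33.4 in Rescue pre-proB and 5.79 in Rescue proB, with no peak in the other libraries. The n copy had a peak in every library, at 40.9, 14.8 and 9.21 over the WT stages, 40.9 in Erg KO, and 45.2, 22.9 and 36.3 over the Rescue stages. The d copy, inside the stretch, had none in WT, 40.3 in Erg KO and 48.1, 10.5 and 8.46 in Rescue. In the pre-proB libraries without Erg the 3 copies thus had folds of like size, and in WT pre-proB 2 copies had it and the third had no peak.

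Trav15-3 behaved alike. The unlettered copy had 13.2 and 6.28 in WT pre-proB and proB, 11.4 in Erg KO and 13.4, 7.57 and 6.19 in Rescue. The n copy had 7.95 and 3.32 in WT, 8.43 in Erg KO and 10, 4.68 and 6.81 in Rescue, and the d copy had no WT peak, 15.9 in Erg KO and 19.7, 12.9 and 10.3 in Rescue. Trav8-2 and Trav10 differed in their course over the stages. Trav8-2 had 5.04, 5.91 and 4.82 over the WT stages, 6.23 in Erg KO and 5.90, 9.13 and 9.90 in Rescue, and its n copy had 7.37, 9.05 and 8.77, then 7.15, then 6.43, 13.4 and 25.8. Its d copy, in the stretch, had 3.66 in Erg KO and 3.75, 6.90 and 12.2 in Rescue, so all 3 copies were highest in Rescue preB. For Trav10 the d copy lies just outside the stretch and had a peak in all 7 libraries, from 4.16 (WT preB) to 8.04 (Rescue pre-proB), the unlettered copy had one in 6, from 2.58 to 6.19, and the n copy, inside, had 3.48, 4.29, 5.35 and 6.60 in the Erg-deficient libraries.

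In other families the copies were less alike, and either side of the border could hold the highest. Trav13-3 had its highest fold at the n copy, with 14 in WT pre-proB, 12.3 in Erg KO, 17.2 in Rescue pre-proB and 6.90 in Rescue proB, while the d copy had 4.95 and 5.72 in Erg KO and Rescue pre-proB and the unlettered copy had none. Trav16 was like it, with 6.78, 5.50 and 6.25 at the n copy in the 3 pre-proB libraries, 3.48 and 2.86 at the d copy in the Erg-deficient pair, and none at the unlettered copy. Trav9-1 had 4.43 in WT proB at both the unlettered and the d copy, 4.58 and 3.75 at the d copy in Erg KO and Rescue pre-proB, and 5.78 in Rescue preB at the n copy. For Trav14-3 the d copy had 26.2, 24.8 and 4.23 in Erg KO, Rescue pre-proB and Rescue proB, and the n copy 3.93 in Rescue pre-proB.

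For 9 families the unlettered copy alone had a peak, although each has a d and an n copy in the stretch. Trav15-1-dv6-1 was the highest, with folds of 22.3 and 5.91 in WT pre-proB and proB, 25.8 in Erg KO and 27.7, 14 and 13.4 in Rescue. The values 5.91 and 13.4 come from peaks at its start and the others from peaks past its end. Trav4-4-dv10 had 10.9 and 3.69 in WT, 11.9 in Erg KO, and 15.2 and 4.68 in Rescue pre-proB and proB. The others were Trav12-1 (from 4.01 to 8.25 in 6 libraries), Trav13-1 (from 4.01 to 13 in 4), Trav14-1 (from 6.96 to 8.14 in the pre-proB libraries), Trav13-2 (from 2.89 to 5.35 in 3), Trav9-2 (4.68 and 5.36 in Rescue proB and preB), Trav5-2 (7.01) and Trav6-7-dv9 (2.89), the last pair in Rescue preB only. In Trav6-6, Trav11 and Trav9-4 peaks stood inside the stretch alone. The n copies of Trav6-6 and Trav11 had 10.6 and 3.66 in Erg KO, and the d and n copies of Trav9-4 had 5.98 and 9.90 in Rescue preB.

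The stage comparison in WT concerned the same locus as B cells mature. Of the 61 WT pre-proB peaks 34 (55.7%, interval 43.3% to 67.5%) had no WT proB partner, where 34.1% of the list had none. In the other direction 13 of 39 WT proB peaks (33.3%, interval 20.6% to 49.0%, list 31.9%) were absent from WT pre-proB. From proB to preB 26 of 39 peaks (66.7%, interval 51.0% to 79.4%, list 26.7%) had no preB partner, and 1 of 14 WT preB peaks (7.14%, interval 1.27% to 31.5%, list 10.7%) had no proB partner. At each step the share of locus peaks not seen at the next stage was thus above that of the whole list, and the share seen only at the later stage was near it. The list shares, here and between genotypes, are not matched for height, and the locus peaks were low in their lists. WT proB peaks without a WT preB partner had a median of 25 fragments, and those with one had 57. The part of height in these shares was not tested.

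Of the regions, 57 had a peak in all 3 pre-proB libraries, and 32 of them had none in WT proB or WT preB. Those 32 were lower at pre-proB, with a median fold of 6.69 in WT pre-proB, than the 25 that were also called later in WT, with a median of 8.72. In Rescue, 11 of the 32 were still called in proB and 7 in preB, and 14 of the 32 in either, where by definition none was called in WT. The highest of the 32 were Trav13-4-dv7 above, the region in Olfr1507 (chr14:52495351-52496208), an olfactory receptor gene among the first V segments, with folds of 38.6, 40.1 and 40.2 at pre-proB and 5.79 in Rescue proB, and chr14:53904258-53905083, 21895 bp from Trav22, with 32.6, 34.3 and 40.6 at pre-proB and 4.68 in Rescue proB. The region over the 5′ end of Trav13n-4 (chr14:53362044-53362560) had 22.7, 19.1 and 21.6 at pre-proB, and in Rescue 7.13 in proB and 5.16 in preB.

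The WT peaks that were new at proB were low, apart from the region in Gm30275 at chr14:54108572-54109161, 4307 bp from Trdd1, with 62 fragments in WT proB and 16 in Rescue proB. The others among the 5 highest were the region near Traj61 described below, chr14:54068638-54069105 in Gm30275 with 29 fragments, and the regions at Trav13-2 (chr14:53634583-53635013 and chr14:53637710-53638045) with 28 each. The highest WT proB peaks not kept in WT preB were the 5′ flank of Trav2 (chr14:52566720-52567334, 62 fragments), the Gm30275 region with 62, chr14:52720553-52721039 with 58, B230359F08Rik, a V segment gene (chr14:53795110-53796038), with 51, and chr14:54110776-54111542 with 38. All 5 also had a peak in Rescue proB, with 38, 16, 30, 43 and 46 fragments, and 3 of them (the Trav2, B230359F08Rik and last regions) had one in Rescue preB, with 32, 39 and 20.

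WT preB kept 14 peaks. Of these 11 were in regions with a peak in all 7 libraries, and the others were 1538 bp from Trav16n (chr14:53349086-53349490), 5 bp from Trav17 and near Traj61. The WT preB fold was below the WT proB fold at 12 of the 13 regions they share. The ratio had a median of −0.48 on the log2 scale, from −1.25 to 0.17, with no value over the whole lists beside it.

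Rescue at the later stages was set against WT to ask how far cells without Erg resemble WT cells of the same stage. At proB, 7 of 39 WT peaks (17.9%, interval 8.98% to 32.7%, list 20.6%) had no Rescue partner and 24 of 57 Rescue peaks (42.1%, interval 30.2% to 55.0%, list 19.8%) had no WT partner. The 7 were low, with the highest at 23 fragments. Outside the stretch 14 of 47 Rescue proB peaks (29.8%) had no WT partner.

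At preB none of the 14 WT peaks lacked a Rescue partner (0%, interval up to 21.5%, list 8.02%), while 45 of 59 Rescue peaks (76.3%, interval 64.0% to 85.3%, list 17.9%) lacked a WT partner. Outside the stretch it was 31 of 45 (68.9%). At the 14 shared regions the Rescue preB fold was above the WT fold in all 14. The ratio had a median of 0.89 on the log2 scale, from 0.31 to 1.98. For the proB libraries the median was 0.06, from −1.61 to 1.49. The ratio was not taken over all shared peaks of the lists, and a shift in height between whole libraries was not tested. The highest Rescue preB peaks without a WT partner were at Trav15-1-dv6-1 (chr14:53559314-53560703, 64 fragments), Trav8d-2 (58), Trav6n-6 (50), Trav15d-3 (49) and Trav9n-4 (47). Of the 5, all but Trav15-1-dv6-1 lie in the stretch, and 10 regions of the locus were called in Rescue preB alone. By its source name this library is pre-proB, and with the source names as stages 47.5% of that library's peaks had no WT pre-proB partner.

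Within the locus, 107 of the 114 regions lay in the V block, 2 in the block of the delta D, J and C segments, 4 in the alpha J block and 1 at Trac. By class, 52 regions lay within 1000 bp of an alpha V segment (11 at a d copy, 13 at an n copy and 28 at other V segments), 2 at a delta V segment, 3 at alpha J segments, 1 at a delta J segment and 2 at a constant gene, while 10 lay at another gene and 44 at none. A peak was within 1000 bp of 23, 17 and 5 of the 130 alpha V segments over the WT stages (17.7%, 13.1% and 3.85%), of 33 in Erg KO (25.4%), and of 35, 28 and 27 over the Rescue stages (26.9%, 21.5% and 20.8%). Most V segments had no peak in any library, since 43 of the 130 (33.1%) had one in at least 1.

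Summits at V segments fell into separate places. Of 54 regions at alpha or delta V segments, 32 had their highest summit upstream of the segment, with a median position of −153 bp from its start, 10 had it inside and 12 had it past the 3′ end. The promoter of a V segment lies in the upstream position. Of the 12 summits past the end, 8 lay between 17 and 51 bp from it, over or beside the recombination signal, and all 12 of those segments carry the heptamer CACAGTG directly past the annotated end, as do 104 of the 136 V segments (76.5%).

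By the summit of each library's own peak, the peaks past the 3′ end were few and high at pre-proB. Their median fold was 22.3 in WT (7 peaks), 21.3 in Erg KO (12) and 19.8 in Rescue (10), where the upstream peaks had 7.37 (17), 4.95 (26) and 4.65 (27). In proB the peaks past the end had 4.80 in WT (3) and 8.13 in Rescue (8), and the upstream peaks 5.35 (15) and 5.68 (18). In preB there was 1 peak past the end in WT, at Trav13n-4 with 9.21, and 2 in Rescue, at Trav13n-4 with 36.3 and at Trav15-1-dv6-1 with 8.87, beside 4 and 25 upstream peaks with medians of 4.49 and 6.81. In 10 regions the peaks of different libraries lay in different places, so a region's values can come from more than 1 site. Trav2 had an upstream region with folds of 9.30 and 11.6 in WT pre-proB and proB, 7.33 in Erg KO and 9.47, 8.69 and 6.81 in Rescue. The region at its 3′ end (chr14:52567660-52568760, summits from −24 to 36 bp of the end) had 30.6 and 4.98 in WT, 31.7 in Erg KO and 29.7, 14 and 7.43 in Rescue, so it was high at pre-proB in every genotype.

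**Figure D4:**
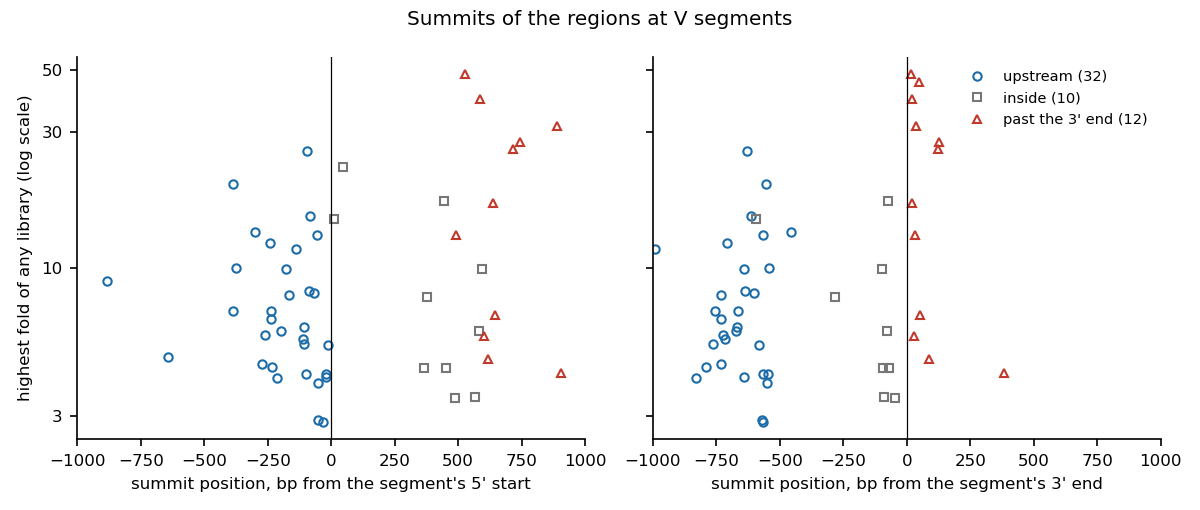
Position of the highest summit of each of the 54 regions at V segments (x axis, bp from the segment's 5′ start at left and from its 3′ end at right) against the highest fold of any library (y axis, log scale). Upstream summits (32) spread before the start, and summits past the 3′ end (12) sit mostly within 51 bp of it and reach high folds. Positions beyond 1000 bp, from regions at Trav13n-4 and Trav14-1, are not drawn.

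The regions with a peak in all 7 libraries, 11 in all, included 4 at V segments, 5 at no annotated gene, 1 at an olfactory receptor gene and 1 at Trac. The highest was at Olfr1509, an olfactory receptor gene (chr14:52450387-52451656), with folds of 31.4, 45.2 and 43.6 over the WT stages, 30.8 in Erg KO and 39.9, 51.2 and 62.5 in Rescue. The region 1071 bp from Trav2 (chr14:52565581-52566127) had 17.6, 21.4 and 8.99, then 14.8, then 24.7, 24.3 and 24.3. The region nearest Trdv4 (chr14:54059739-54060370) varied least of the 11, with 8.72, 12 and 10.5 in WT, 9.34 in Erg KO and 10.7, 11.4 and 13 in Rescue. Trav13n-4 and Trav8n-2, given above, complete the 5 with the highest lowest −log10 q. The region at chr14:52547794-52548555, 18643 bp from Trav2, was low at pre-proB and higher later in both genotypes, with 4.07, 15.1 and 10.7 in WT, 3.66 in Erg KO and 3.57, 13.6 and 21 in Rescue.

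In the delta part of the locus the regions nearest the D segments were highest at pre-proB, while the region 4307 bp from Trdd1 and that at Trdc were called at proB alone. In T cells the D segments of delta join first. The region 1926 bp from Trdd1, in Gm30275 (chr14:54110776-54111542), had folds of 36.3 and 7.20 in WT pre-proB and proB, none in WT preB, 33.3 in Erg KO and 38.8, 10.5 and 4.33 in Rescue. The region over Trdd2 that reaches to within 1000 bp of Trdj1 (chr14:54121621-54122375) had 16.1 in WT at pre-proB, 18.3 in Erg KO, and 18.0 and 6.90 in Rescue at pre-proB and proB, and no peak in WT proB, WT preB or Rescue preB. Both regions were thus called longer in Rescue than in WT. The delta V segments Trdv1 (chr14:53881356-53881688) and Trdv2-2 (chr14:53960940-53961666) had low peaks in the 3 pre-proB libraries, from 3.30 to 5.62 and from 4.95 to 7.86, and Trdv1 had 4.25 in WT proB.

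At Trdc, the delta constant gene, a peak was called only at proB (chr14:54146532-54146796), with 25 fragments in WT and 17 in Rescue. No peak lay between the last delta J segment and Trdc, the part that holds the delta enhancer, in any of the 7 libraries. The region 1798 bp from Traj61 (chr14:54152140-54153207), where transcription through the alpha J segments starts in thymocytes, had folds of 6.28 and 4.38 in WT proB and preB, 3.48 in Erg KO, and 6.46 and 7.01 in Rescue proB and preB, with none in WT or Rescue pre-proB.

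Alpha J segments had peaks at pre-proB alone, in all 3 libraries of that stage and at the same 3 regions. The region over Traj50 to Traj48 (chr14:54168391-54168885) had 8.72 in WT, 8.98 in Erg KO and 8.04 in Rescue, and its sequence above shows the recombination signal of Traj49. Those over Traj43 to Traj41 (chr14:54175488-54175844) and 715 bp from Traj26 (chr14:54193526-54193775) were lower, from 3.68 to 4.65 and from 3.49 to 4.65. In all, 7 of the 60 alpha J segments lay within 1000 bp of a peak.

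Trac was more accessible at the later stages. The region at the alpha constant gene (chr14:54222260-54223113) had folds of 4.65, 10.9 and 12.3 over the WT stages, 7.15 in Erg KO, and 6.79, 17.6 and 16.3 over the Rescue stages. All 3 pre-proB values lay below all 4 later ones.

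Past the end of Trac, and so past the interval of the locus, 4 further regions had a peak in every library. The largest, chr14:54226559-54228613 with its summit 3339 bp past Trac, lies where the alpha enhancer does. Its −log10 q was 1216, 1021 and 589 over the WT stages, 1174 in Erg KO, and 1409, 754 and 617 in Rescue, and its fold was 132, 111, 81.5, 123, 140, 100 and 80.9 in the same order. That placed it between the 94.3 and 98.9 percentile of each list by q, while the highest member stood at the 95.4 percentile in Erg KO and Rescue pre-proB. No member window held the CRE that its sequence shows, where 0.868% of all peaks did.

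The region 1011 bp past Trac by its summit (chr14:54224432-54225574) followed the course of Trac, with folds of 6.78, 20.5 and 17.1 over the WT stages, 5.31 in Erg KO and 8.22, 22.9 and 23.5 over the Rescue stages. The regions with summits 6664 and 9221 bp past Trac were closer between libraries, from 11.4 to 25.8 and from 33.0 to 45.4. Trac and the regions 1011 and 6664 bp past it were thus more accessible at proB than at pre-proB in WT and in Rescue, the region 3339 bp past Trac was lower at proB in both, and the V block held fewer peaks (53 and 35 regions in WT, 83 and 50 in Rescue).

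**Figure D5:**
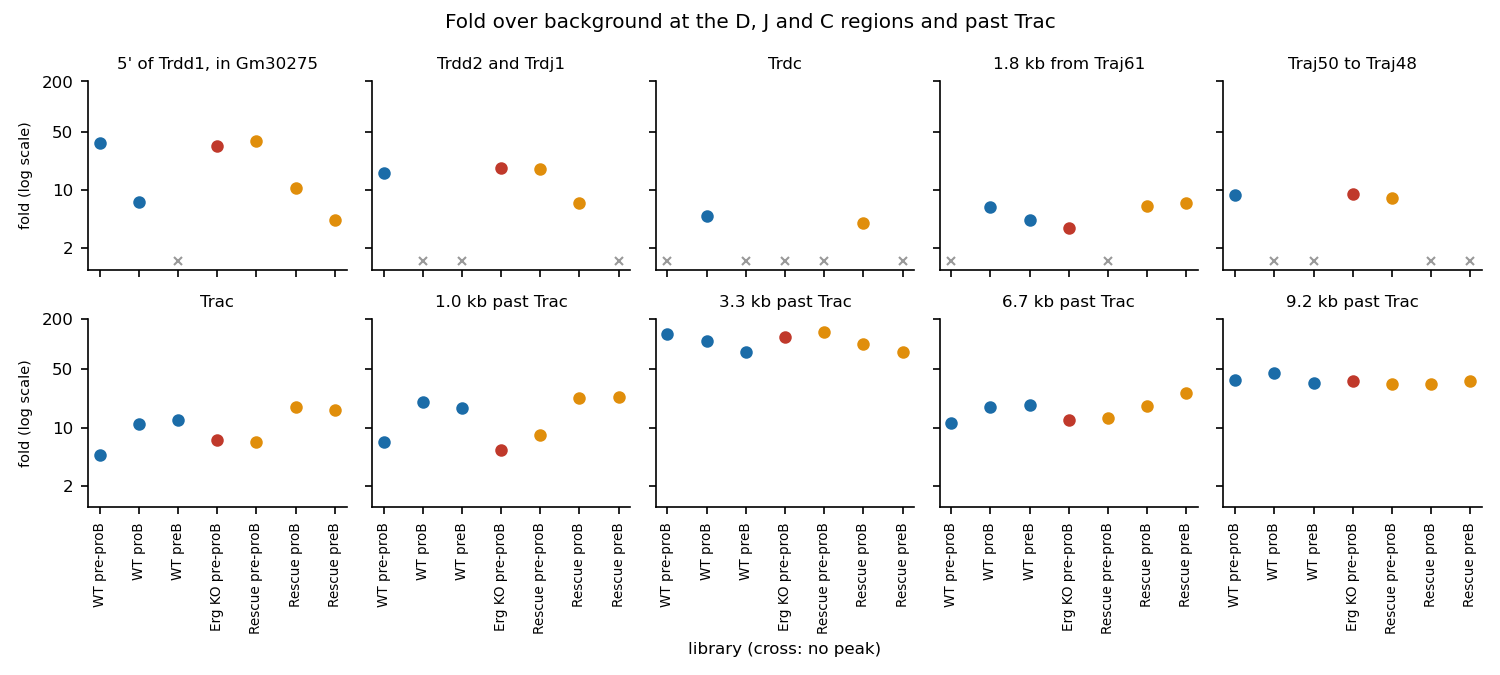
Fold over background (y axis, log scale) in each library (x axis) at the regions of the delta D and J segments, Trdc, near Traj61, at Traj50 to Traj48 and at Trac, and at the 4 regions past Trac named by the distance of their summit; crosses mark libraries without a peak. The delta D and Traj50 to Traj48 regions are highest at pre-proB, Trac and the region 1.0 kb past it are lowest there, and the region 3.3 kb past Trac is high in all 7 libraries, from 80.9 to 140.

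Short sequence patterns were counted on both strands in the 300 bases around each region's highest summit. The heptamer CACAGTG was in 25 of the 114 windows (21.9%), against 10% of all peaks of the 7 lists, and the nonamer ACAAAAACC in 5 (4.39%), against 0.702%. At V segments 21 of 54 windows (38.9%) held the heptamer, which 104 of the 136 V segments carry directly past their end. The heptamer share is thus not independent of where the windows lie. Windows at copies hold nearly the same sequence, so any pattern there is counted more than once. The CTCF core CNAGNNGGC was in 24 windows (21.1%), near the 22.2% of all peaks, but in 7 of the 11 regions with a peak in all 7 libraries and in 3 of the 32 regions called in every pre-proB library and in no later WT library. The RUNX core TGTGGT was in 51 windows (44.7%, all peaks 30.6%) and the GATA core AGATAA in 26 (22.8%, all peaks 11.8%). The ETS core AGGAAG was in 60 (52.6%, all peaks 47.6%), and in 11 of the 20 windows of the stretch (55.0%). The E-box CAGNTG was in 79 (69.3%, all peaks 64.2%) and the TCF/LEF core CTTTGAA in 8 (7.02%, all peaks 6.21%). A match describes letters in a window and shows no binding.

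Genes that build and use the receptor were read by their promoters, within 1000 bp of a transcription start site. Of 10 genes of the receptor complex and its signalling, 5, 3 and 2 had a promoter peak over the WT stages, 5 in Erg KO, and 5, 4 and 3 over the Rescue stages. Ptcra, which encodes the pre-T alpha chain of the pre-T-cell receptor, had one in the 3 pre-proB libraries alone. Its −log10 q there was 51.4 in WT, 49.6 in Erg KO and 51.2 in Rescue. Cd3g, a CD3 chain, had 37.6, 55.5 and 70.6 at pre-proB and 4.26 in Rescue proB. The kinase gene Lck had a peak in all 7, from 24.2 to 127, and Trbc1, Trbc2, Cd3d, Cd3e and Zap70 had none.

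Genes of the recombination machinery had promoter peaks in nearly every library. All 5 had a promoter peak in the pre-proB and proB libraries, and 4 in the preB libraries. The missing gene was Dntt, the enzyme that adds bases at the joints, with a −log10 q of 137 and 4.24 in WT pre-proB and proB, 31.8 in Erg KO, and 34.4 and 7.10 in Rescue pre-proB and proB. Rag1 had from 194 to 493 and Rag2 from 22.8 to 203, both higher at proB and preB than at pre-proB in WT and in Rescue. Of 11 factors known to act at the locus, 9, 11 and 9 had a promoter peak over the WT stages, 11 in Erg KO and 11, 9 and 9 in Rescue, and Ets1, Runx1, Gata3, Tcf3, Tcf12, Lef1, Ctcf and Satb1 had one in all 7.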

How the data were processed

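ATAC-seq libraries of sorted mouse B-cell progenitors were read at the level of called peaks, with 1 library in each of 7 groups and no replicate. Per the labels chromatin was cut with Tn5, while the methods name sonication. Reads came off CASAVA 1.8.2, were aligned to mm10 with Bowtie2, had duplicates handled with Picard and were called with MACS2, per the submitters' processing notes. For other versions and the options, not given in the sources used here, nothing was assumed. Peaks were called per library, without pooling. The lists deposited by the authors give for each peak a whole-number score, the fold (a ratio of pileup to background at the summit), the −log10 p-value, the −log10 q-value and the summit offset.

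From these, the pileup in fragments was recovered through fold = (pileup + 1)/(background + 1), and 100% of the values came out as whole steps. The lowest called pileup was 10 to 12 fragments, which is what a place without a peak could still hold. The lists hold no read totals, so the depth is known only through the background pileup. Peaks in the interval were merged at an overlap of 1 bp and classed by GENCODE M21 segments within 1000 bp. Tests were not possible with 1 library per group, and shares carry 95% Wilson intervals. Copies were found with BLAST+ 2.17.0 (at least 200 aligned bases), and words of 75 bases, the read length, were counted on both strands within the interval. Python 3.11.15, pandas 2.3.3, NumPy 2.4.6 and SciPy 1.17.1 were used, and the helper functions were tested on simulated data.

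Named regions were those at Trdc, Trac, the delta D and J segments and the alpha J segments, those past Trac, those in all 7 libraries, the highest of each library and the highest unshared peaks of each comparison, and other regions were chosen after their values were seen. Members and lists were chosen with earlier results of these data known. The stretch without WT peaks and the alternative without Rescue were chosen after seeing the data. The alternatives were lists of equal length, a stricter q, a 50% reciprocal overlap, a 200 bp merge gap, the source names as Rescue stages, and narrower or summit-based classes.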

Additional observations from a re-analysis of the deposited data

Results flagged for a closer look

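From proB to preB the number of peaks in the Tcra/Tcrd interval differed by −25 in WT (39 and 14 peaks) and by 2 in Rescue (57 and 59 peaks). The 2 differences have opposite signs, with 1 library for each stage. With lists of the shortest length Rescue held 51 and 50 peaks, the same sign as WT, and with lists of 50% of that length 15 and 15. The difference was not tested. The stages of the Rescue libraries are those of their titles, against which their source names speak.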

How the results depend on the processing

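Of 114 recomputed values, 68 stayed within their interval or within 1.5 times the first value and 46 did not, and 21 of these came from lists shortened to 50% of the shortest list. The cause was not tested beyond the smaller number of peaks. With those lists the interval held 15, 10 and 6 peaks over the WT stages, 18 in Erg KO, and 21, 15 and 15 over the Rescue stages. The unshared shares were then 13.3% of WT pre-proB peaks against Erg KO and 22.2% in reverse, 80.0% of WT pre-proB against WT proB and 70.0% in reverse, 40% of WT proB against WT preB and 0% in reverse, 6.67% of WT pre-proB against Rescue pre-proB, 40% of WT proB against Rescue proB and 60% in reverse, 60% of Rescue preB against WT preB, and 0% of Erg KO against Rescue pre-proB and 19% in reverse. Regions in Erg-deficient libraries and no WT library numbered 12, and 1 was in all 4. With lists of the shortest list's length, Erg KO held 60 peaks and Rescue pre-proB 55, and the shares were 20% (Erg KO against WT pre-proB), 13.7% (WT against Rescue pre-proB) and 21.8% in reverse. At a −log10 q of at least 10, WT proB held 24 peaks, WT preB 8, Erg KO 59, Rescue pre-proB 57 and Rescue proB 34, the shares were 23.7% (Erg KO against WT pre-proB), 0% (WT preB against WT proB) and 6.52% (WT against Rescue pre-proB), and 3 regions were in all 4 Erg-deficient libraries and no WT library. With the source names as stages, 49.2% of WT pre-proB peaks lacked a Rescue pre-proB peak and 47.5% in reverse, 66.7% of Rescue proB peaks lacked a WT proB peak, and 54.3% of Erg KO peaks lacked a Rescue pre-proB peak and 30.5% in reverse. An overlap of 50% of both peaks gave 15.2% for Erg KO against Rescue pre-proB. Without the Rescue libraries, an alternative chosen after seeing the data, 25 regions were in Erg KO and no WT library. Under both class alternatives the region at Trdd2 counted as delta diversity (1) and delta joining held 0. No paired analysis was possible because each group has 1 library and no result comes from a test. Depth limits what is called, since places under 10 to 12 fragments are not listed.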
